A study of Mus musculus with 12 samples.

Results

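The 41 genes examined here mark microglia, the resident immune cells of the retina, and macrophages. They were chosen by name, and a probe set was taken as a member where its only annotated gene symbol was on the list. That rule found 61 of the 45037 probe sets tested, for 40 of the 41 genes. Spp1 was not matched and was not analysed here. RNA came from the whole neural retina of adult mice of 10 weeks and was hybridised to 12 arrays of the type Mouse Genome 430 2.0, 2 for each of 6 groups. From the 129 strain (129X1/SvJJmsSlc) came explants kept for 3 days in vitro (3DIV) with CHIR99021 at 15 µM, 3DIV explants with vehicle, and normal retina that was not cultured. The same 3 groups came from the B6 strain (C57BL/6NCrSlc). CHIR99021 inhibits the kinase GSK3, and the vehicle, DMSO, was in the medium of the explants that served as its control.

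Microglia tile the inner retina and the synaptic layers with fine, moving processes and depend on signalling through the receptor Csf1r. In undisturbed tissue they carry a set of sensing receptors and regulators, called homeostatic genes below, of which P2ry12 and Tmem119 are the best known. When neurons or photoreceptors die, microglia and incoming macrophages round up, take up debris and turn on receptors for lipids and dying cells, lysosomal enzymes and proteins such as Clec7a and Gpnmb.

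The 2 arrays of a group are called biological replicates in the labels, and 2 retinas were prepared for each condition; whether these came from different animals is not stated, so the p-values measure the spread between these samples. Values are linear RMA intensities, which rise with the amount of RNA but cannot be set against each other between probe sets. Array medians were 68.7 to 70.6, and the arrays of a group correlated at 0.9965 to 0.9978. A difference was called at an adjusted p under 0.05 from limma's moderated test over all probe sets, and the brightest probe set stood for its gene. In whole tissue, fewer cells of a type and less RNA per cell cannot be told apart. Markers of other tissues differed between arrays. Rod markers summed to 24194.8 to 26370.7 in CHIR99021 explants, 33237.6 to 38216.4 in vehicle explants and 66796.5 to 69375.5 in normal retina. Markers of the pigmented epithelium and melanocytes summed to 326 to 449 in explants, against 4373 to 11678 in normal retina. Lens markers summed to 24924.1 on replicate 2 and to 955 on replicate 1 of 129 normal retina, and to 193 to 243 on all other arrays.

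The plain picture was that most members rose in culture in both strains and that explants of 129 reached lower levels than explants of B6. The best known homeostatic genes, P2ry12 and Tmem119, were not called higher. Their probe sets lay at percentiles 21.6 and 43.5 of all probe sets by mean log2 value. In 129, 27 of the 40 members were higher and 1 was lower in 3DIV vehicle explants than in normal retina, where 14.7% of all probe sets were called higher and 15.9% lower. In B6, 31 were higher and 1 was lower, where 14.9% of all probe sets were called higher and 16.6% lower. The median log2 difference of the members was 0.71 in 129 and 1.26 in B6, beside -0.01 and 0.00 over the 18193 genes measured. Centring the arrays on housekeeping genes moved the median of all genes by -0.22 in 129 and -0.06 in B6, and then 22 members were higher and 9 lower in 129. Over all probe sets, the share of calls that were higher was 48.2% in 129 and 47.3% in B6 as fitted, and 14.8% in 129 and 36.4% in B6 with that centring. The 7 housekeeping genes measured, of 10 listed, were themselves not steady. In culture 2 were called higher and 1 lower in 129, and 2 higher and 3 lower in B6, with log2 differences up to 1.58 and 1.22. In normal retina 4 of the 7 were called lower in 129 than in B6. Calls with this centring, here and below, therefore also carry the changes of these genes.

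**Figure D1:**
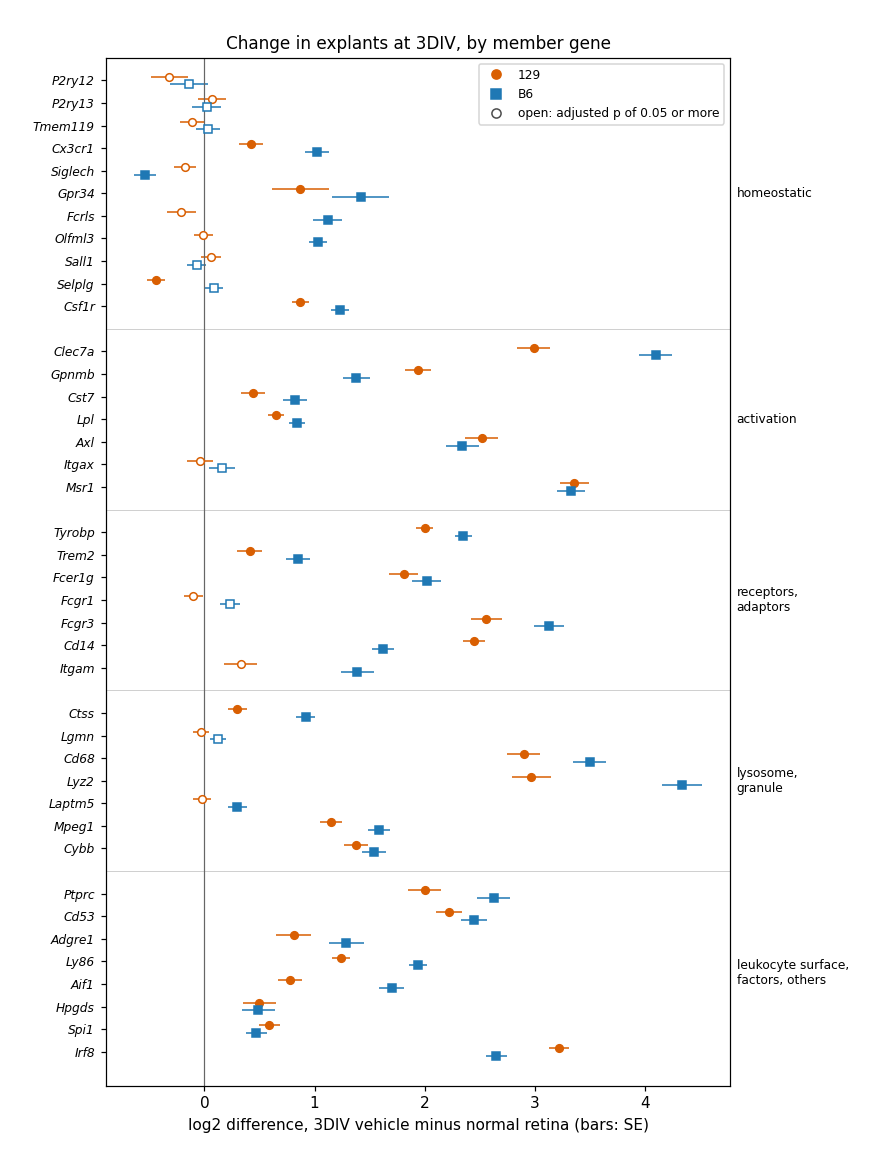
Log2 difference between 3DIV vehicle explants and normal retina for each member gene, in 129 (circles) and in B6 (squares), grouped by role. Bars are standard errors, and open symbols did not pass an adjusted p of 0.05. Members of the activation group reach 3.36 in 129 and 4.10 in B6, whereas P2ry12, P2ry13, Tmem119 and Sall1 lie between -0.32 and 0.07, open in both strains; P2ry12 and Tmem119 passed the test as lower in 129 when arrays were centred on housekeeping genes.

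Among the 11 homeostatic genes, 3 rose and 1 fell in 129, and 5 rose and 1 fell in B6, with median log2 differences of -0.01 and 0.09. Of all probe sets, 14.7% rose and 15.9% fell in 129, and 14.9% rose and 16.6% fell in B6. P2ry12, an ADP receptor that guides microglial processes to sites of injury, had intensities of 18.8 and 21.1 in 129 vehicle explants, against 26.4 and 23.6 in 129 normal retina. In B6 it had 18.7 and 18.9 in vehicle explants, against 24.7 and 17.3 in normal retina. The groups did not overlap in 129 and overlapped in B6, and neither difference passed the test (log2 -0.32, SE 0.17, adjusted p = 0.185 in 129; -0.14, SE 0.17, adjusted p = 0.59 in B6). Its only probe set was dim, at percentile 21.6 of all probe sets by mean log2 value. With arrays centred on housekeeping genes, P2ry12 and Tmem119, described next, were called lower in 129 (log2 -0.55 and -0.33, adjusted p = 0.0185 and 0.0309). Tmem119, a membrane protein used as a microglial marker, had 47.2 and 44.3 in 129 vehicle explants, against 54.7 and 44.6 in 129 normal retina. It had 66.4 and 54.7 in B6 vehicle explants, against 58.7 and 59.5 in B6 normal retina. Explants therefore had neither a gain nor a loss of Tmem119 that passed the test (log2 -0.11, SE 0.11, adjusted p = 0.51 in 129; 0.03, SE 0.11, adjusted p = 0.877 in B6). P2ry13, a related ADP receptor, and Sall1, a transcription factor that holds microglial identity, had differences between -0.07 and 0.07 in the 2 strains. The probe sets used for Tmem119, P2ry13 and Sall1 were below the median level too, at percentiles 43.5, 32.2 and 35.7. This limits what their flat values show. Housekeeping centring also ended the calls as higher in 129 of Cx3cr1, Cst7, Trem2, Ctss and Hpgds, described below (log2 0.20, 0.22, 0.18, 0.08 and 0.28, adjusted p = 0.145, 0.0936, 0.187, 0.468 and 0.134).

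Siglech, a sialic acid-binding receptor of microglia, fell in B6. It had 54.6 and 52.9 in B6 vehicle explants, against 77.5 and 78.5 in B6 normal retina (log2 -0.54, SE 0.10, adjusted p = 0.00219). In 129 it had 62.5 on both vehicle arrays, against 75.7 and 66.0 in normal retina, which did not pass the test as fitted (log2 -0.18, adjusted p = 0.235). With arrays centred on housekeeping genes, Siglech was called lower in 129 (log2 -0.40, adjusted p = 0.0101). The groups did not overlap in either strain. Selplg, the ligand of P-selectin on leukocytes, fell in 129, with 48.9 and 46.1 in vehicle explants, against 64.8 and 63.9 in normal retina (log2 -0.44, SE 0.08, adjusted p = 0.00181). In B6 it had 76.7 and 66.4 in vehicle explants, against 65.7 and 68.1 in normal retina, and those groups overlapped (log2 0.09, adjusted p = 0.431).

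Csf1r and Cx3cr1, receptors on which microglia rely, did rise. Csf1r, the receptor of Csf1 and Il34, had 438 and 447 in 129 vehicle explants, against 248 and 237 in 129 normal retina. In B6 it had 802 and 706 in vehicle explants, against 332 and 311 in normal retina. Every vehicle array was above every normal array (log2 0.87 in 129, adjusted p = 9.85e-06; 1.23 in B6, adjusted p = 7.37e-07; SE 0.08 for both). Cx3cr1, the receptor of the neuronal chemokine Cx3cl1, had 86.7 on both 129 vehicle arrays, against 64.5 and 64.7 in 129 normal retina. It had 151 and 115 in B6 vehicle explants, against 66.3 and 63.3 in B6 normal retina. Its rise was 1.02 on the log2 scale in B6 (SE 0.11, adjusted p = 4.38e-05) and 0.42 in 129 (SE 0.11, adjusted p = 0.0135), and the call in 129 was lost without any 1 of the 4 arrays compared (adjusted p up to 0.0628). Gpr34, a receptor for a lysophospholipid, rose by 1.42 in B6 (adjusted p = 0.00151) and by 0.87 in 129 (adjusted p = 0.0249), where the call was likewise lost without any of the 4 arrays (adjusted p up to 0.112).

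Fcrls and Olfml3 differed between strains in their change. Fcrls, an Fc receptor-like protein found on microglia, had 33.4 and 37.8 in 129 vehicle explants, against 40.4 and 41.7 in 129 normal retina. In B6 it had 104 and 88.7 in vehicle explants, against 40.0 and 49.1 in normal retina. All B6 explant arrays were above all other arrays of these 4 groups. Olfml3, a secreted olfactomedin-like protein, had 58.6 and 54.7 in 129 vehicle explants, against 61.4 and 53.1 in 129 normal retina. It had 248 and 237 in B6 vehicle explants, against 119.8 and 118.5 in B6 normal retina. The groups overlapped in 129 and were far apart in B6. Fcrls rose by 1.12 in B6 (adjusted p = 8.42e-05) and had -0.21 in 129 (adjusted p = 0.279), and the 129 change minus the B6 change was -1.33 (SE 0.19, adjusted p = 0.00596). Olfml3 rose by 1.03 in B6 (adjusted p = 5.33e-06) and had -0.01 in 129 (adjusted p = 0.932), with a difference of changes of -1.04 (SE 0.12, adjusted p = 0.00193). With housekeeping centring, Fcrls and Olfml3 were called lower in 129 culture (log2 -0.43 and -0.24, adjusted p = 0.0212 and 0.0416). Of the 10 members with a called difference of changes, these were the 2 that kept it when any 1 array was left out. Both genes had 1 probe set each, and whether a strain difference in sequence under it affects these changes was not tested.

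The activation genes rose, 6 of the 7 measured in each strain, with median log2 differences of 1.94 in 129 and 1.38 in B6. Of all probe sets, 14.7% were called higher in 129 and 14.9% in B6. Clec7a, the receptor Dectin-1 for fungal glucans, had 266 and 275 in 129 vehicle explants, against 29.6 and 39.0 in 129 normal retina. It had 812 and 662 in B6 vehicle explants, against 47.1 and 38.7 in B6 normal retina. The fold was 7.96 in 129 (log2 2.99, SE 0.15, adjusted p = 1.05e-07) and 17.2 in B6 (log2 4.10, SE 0.15, adjusted p = 1.4e-08), with no overlap in either strain. Msr1, a scavenger receptor for modified lipoproteins, had 286 and 284 in 129 vehicle explants, against 28.6 and 26.8 in 129 normal retina. It had 373 and 321 in B6 vehicle explants, against 30.9 and 38.5 in B6 normal retina. Msr1 thus rose by 10.3-fold in 129 (adjusted p = 1.5e-08) and by 10.0-fold in B6 (adjusted p = 2e-08), with a difference of changes of 0.04 (SE 0.18, adjusted p = 0.945).

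Axl, a receptor for Gas6, a protein that tags dying cells, had 326 and 318 in 129 vehicle explants, against 48.7 and 65.2 in 129 normal retina. It had 307 and 398 in B6 vehicle explants, against 73.0 and 65.1 in B6 normal retina. Both strains were well separated (log2 2.52 in 129, adjusted p = 3.72e-07; 2.34 in B6, adjusted p = 6.76e-07; SE 0.15 for both). Gpnmb, a glycoprotein of phagocytes under lysosomal load and also of pigment cells, had 572 and 437 in 129 vehicle explants, against 127 and 133 in 129 normal retina. It had 335 and 287 in B6 vehicle explants, against 120.8 and 116.8 in B6 normal retina. Its rise was 1.94 in 129 (adjusted p = 7.05e-07) and 1.38 in B6 (adjusted p = 1.09e-05). The part of pigment cells, whose markers were lower in explants, was not tested. Cst7, which encodes cystatin F, and Lpl, which encodes lipoprotein lipase, rose by less, Cst7 by 0.44 in 129 and 0.82 in B6 and Lpl by 0.65 in 129 and 0.84 in B6. The call of Cst7 in 129 was lost without replicate 1 of 129 normal retina or of 129 vehicle explants (adjusted p up to 0.0839). Itgax, the integrin chain CD11c, was the member of the group that was not called (log2 -0.04 in 129, 0.16 in B6).

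Promoter sequence is shown for 4 members with a match that rose in culture, Itgam in B6 and the others in both strains, and for Gpnmb, which rose in both and had no match. They were picked after their values were seen. The search was for the core because Spi1, itself a member, encodes PU.1, a factor that acts at the core GAGGAA. RefSeq on build GRCm38.p6 gave the 250 bases before the start for 31 of the 41 genes. The core or its complement TTCCTC lay in a window of 16 of these 31 genes (51.6%), against 25.9% of all 27025 genes with a window. The ETS-IRF composite element of PU.1 and Irf8, searched on both strands and able to overlap the core, lay in 1 of the 31 (3.23%), Clec7a, against 2.68% of all genes. Capitals mark matches, which are letters and not shown binding sites. The window of Clec7a was chr6:129472780-129473029 on the minus strand, that of Fcgr3 chr1:171059395-171059644 on the minus strand and that of Itgam chr7:128062390-128062639 on the plus strand. The window of Cd68 was chr11:69666171-69666420 on the minus strand and that of Gpnmb, with no match, chr6:49036268-49036517 on the plus strand.
Clec7a: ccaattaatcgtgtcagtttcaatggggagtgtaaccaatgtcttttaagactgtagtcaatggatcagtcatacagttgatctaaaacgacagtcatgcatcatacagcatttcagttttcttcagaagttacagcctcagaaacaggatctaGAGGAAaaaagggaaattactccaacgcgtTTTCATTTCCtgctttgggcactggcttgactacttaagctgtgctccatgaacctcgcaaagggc
Fcgr3: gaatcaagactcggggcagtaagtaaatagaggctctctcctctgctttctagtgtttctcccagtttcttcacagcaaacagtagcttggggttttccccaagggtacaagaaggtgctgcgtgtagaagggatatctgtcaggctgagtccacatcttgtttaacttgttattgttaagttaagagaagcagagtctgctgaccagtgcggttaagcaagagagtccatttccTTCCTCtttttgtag
Itgam: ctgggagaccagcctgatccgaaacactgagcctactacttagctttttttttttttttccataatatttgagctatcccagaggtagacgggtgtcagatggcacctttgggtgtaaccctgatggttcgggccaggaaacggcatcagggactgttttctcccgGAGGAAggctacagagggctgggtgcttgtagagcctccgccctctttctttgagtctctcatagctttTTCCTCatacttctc
Cd68: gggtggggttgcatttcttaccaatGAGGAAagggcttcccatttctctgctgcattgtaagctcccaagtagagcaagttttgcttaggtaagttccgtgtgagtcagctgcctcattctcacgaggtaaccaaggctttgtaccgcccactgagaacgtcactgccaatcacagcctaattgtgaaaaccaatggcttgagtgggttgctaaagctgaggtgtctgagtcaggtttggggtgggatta
Gpnmb: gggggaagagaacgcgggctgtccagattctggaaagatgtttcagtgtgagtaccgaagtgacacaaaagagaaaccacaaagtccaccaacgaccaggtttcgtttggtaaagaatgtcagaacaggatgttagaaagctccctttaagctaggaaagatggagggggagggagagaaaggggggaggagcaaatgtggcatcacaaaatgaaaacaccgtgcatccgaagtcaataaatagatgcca

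The receptors and adaptors rose in 5 of 7 members in 129 and in 6 of 7 in B6, beside 14.7% and 14.9% of all probe sets. Tyrobp, the adaptor DAP12 through which Trem2 signals, had 318 and 298 in 129 vehicle explants, against 76.4 and 77.0 in 129 normal retina. It had 686 and 664 in B6 vehicle explants, against 132 and 134 in B6 normal retina. The fold was 4.01 in 129 (adjusted p = 1.64e-08) and 5.09 in B6 (adjusted p = 7.48e-09; SE 0.08 on the log2 scale for both), and every 129 array was below every B6 array of the same state. Fcgr3, a low-affinity receptor for immunoglobulin G, had 279.9 and 256 in 129 vehicle explants, against 38.7 and 53.3 in 129 normal retina. It had 483 and 409 in B6 vehicle explants, against 52.8 and 49.1 in B6 normal retina, folds of 5.89 in 129 and 8.73 in B6. Fcer1g, the signalling chain shared by Fc receptors, rose by 3.50-fold in 129 and 4.06-fold in B6. Trem2, a lipid receptor of microglia, moved little, by 0.41 in 129 and 0.85 in B6 (adjusted p = 0.0158 and 0.000154), and the call in 129 was lost without replicate 2 of 129 normal retina or of 129 vehicle explants (adjusted p up to 0.137).

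Cd14, a co-receptor for bacterial lipopolysaccharide, rose more in 129. It had 425 and 415 in 129 vehicle explants, against 73.4 and 80.3 in 129 normal retina, a 5.46-fold rise. It had 186 and 194 in B6 vehicle explants, against 63.1 and 60.5 in B6 normal retina, a 3.07-fold rise. The 129 change minus the B6 change was 0.83 (SE 0.15, adjusted p = 0.0168), a call lost without any of 6 arrays, namely replicate 1 of either normal group and every vehicle array (adjusted p up to 0.0633). Itgam, the integrin chain CD11b, went the other way on a dim probe set (percentile 16.3 by mean log2 value), with 15.1 and 16.1 in 129 vehicle explants, against 14.0 and 11 in 129 normal retina. It had 33.0 and 32.9 in B6 vehicle explants, against 12.3 and 12.8 in B6 normal retina. Itgam rose by 1.39 in B6 (adjusted p = 3.32e-05) and had 0.33 in 129 (adjusted p = 0.116).

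Among the 7 lysosome and granule genes, 5 rose in 129 and 6 in B6, beside 14.7% and 14.9% of all probe sets. Lyz2, lysozyme of macrophages and microglia, had 479 and 413 in 129 vehicle explants, against 54.5 and 58.6 in 129 normal retina. It had 1645 and 1705 in B6 vehicle explants, against 105.6 and 64.6 in B6 normal retina. These were folds of 7.86 in 129 (adjusted p = 4.46e-07) and 20.3 in B6 (adjusted p = 3.26e-08). Cd68, a lysosomal protein of phagocytes, had 211 and 196 in 129 vehicle explants, against 23.6 and 31.5 in 129 normal retina. It had 397 and 357 in B6 vehicle explants, against 37.7 and 29.2 in B6 normal retina. Cd68 therefore rose by 7.47-fold in 129 and 11.3-fold in B6, with no overlap. Mpeg1, the pore-forming perforin-2, rose by 2.21-fold in 129 and 3.0-fold in B6, and Cybb, a subunit of the phagocyte oxidase, by 2.61-fold in 129 and 2.91-fold in B6. Ctss, the protease cathepsin S, rose by 0.92 on the log2 scale in B6 (adjusted p = 1.44e-05) and by 0.30 in 129 (adjusted p = 0.022), where the call was lost without any of the 4 arrays compared (adjusted p up to 0.103). Lgmn, the protease legumain, was not called in either strain (log2 -0.03 in 129, 0.12 in B6).

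All 8 genes of the last group, leukocyte surface proteins, transcription factors and others, rose in both strains. Of all probe sets, 14.7% rose in 129 and 14.9% in B6. Irf8, a transcription factor needed for microglia and monocytes, had 335 and 302 in 129 vehicle explants, against 31.9 and 36.5 in 129 normal retina. It had 283 and 291 in B6 vehicle explants, against 47.3 and 44.1 in B6 normal retina. The fold was 9.32 in 129 (adjusted p = 2.31e-09) and 6.28 in B6 (adjusted p = 1.25e-08). Spi1, the other myeloid transcription factor of the list, rose by 1.51-fold in 129 and 1.38-fold in B6 (adjusted p = 0.000644 and 0.00319). Ptprc, the pan-leukocyte protein CD45, had 70.0 and 76.2 in 129 vehicle explants, against 20.1 and 16.7 in 129 normal retina. It had 132 and 105 in B6 vehicle explants, against 20.8 and 17.5 in B6 normal retina. Every vehicle array was above every normal array, with folds of 3.99 in 129 and 6.18 in B6. Aif1, the calcium-binding protein Iba1, had 26.0 and 24.5 in 129 vehicle explants, against 15.6 and 13.9 in 129 normal retina. It had 74.5 and 73.5 in B6 vehicle explants, against 23.2 and 22.4 in B6 normal retina, folds of 1.72 in 129 and 3.25 in B6. The tetraspanin Cd53 rose by 4.66-fold in 129 and 5.45-fold in B6, Ly86, a partner of a Toll-like receptor relative, by 2.37-fold in 129 and 3.85-fold in B6, and Adgre1, the macrophage antigen Emr1, by 1.76-fold in 129 and 2.44-fold in B6. Hpgds, a prostaglandin D synthase, was called in both strains at 1.41-fold in 129 and 1.40-fold in B6, and both calls were lost without some array, namely replicate 2 of 129 normal retina or of 129 vehicle explants in 129 and any of the 4 B6 arrays compared in B6 (adjusted p up to 0.212 and 0.136).

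**Figure D2:**
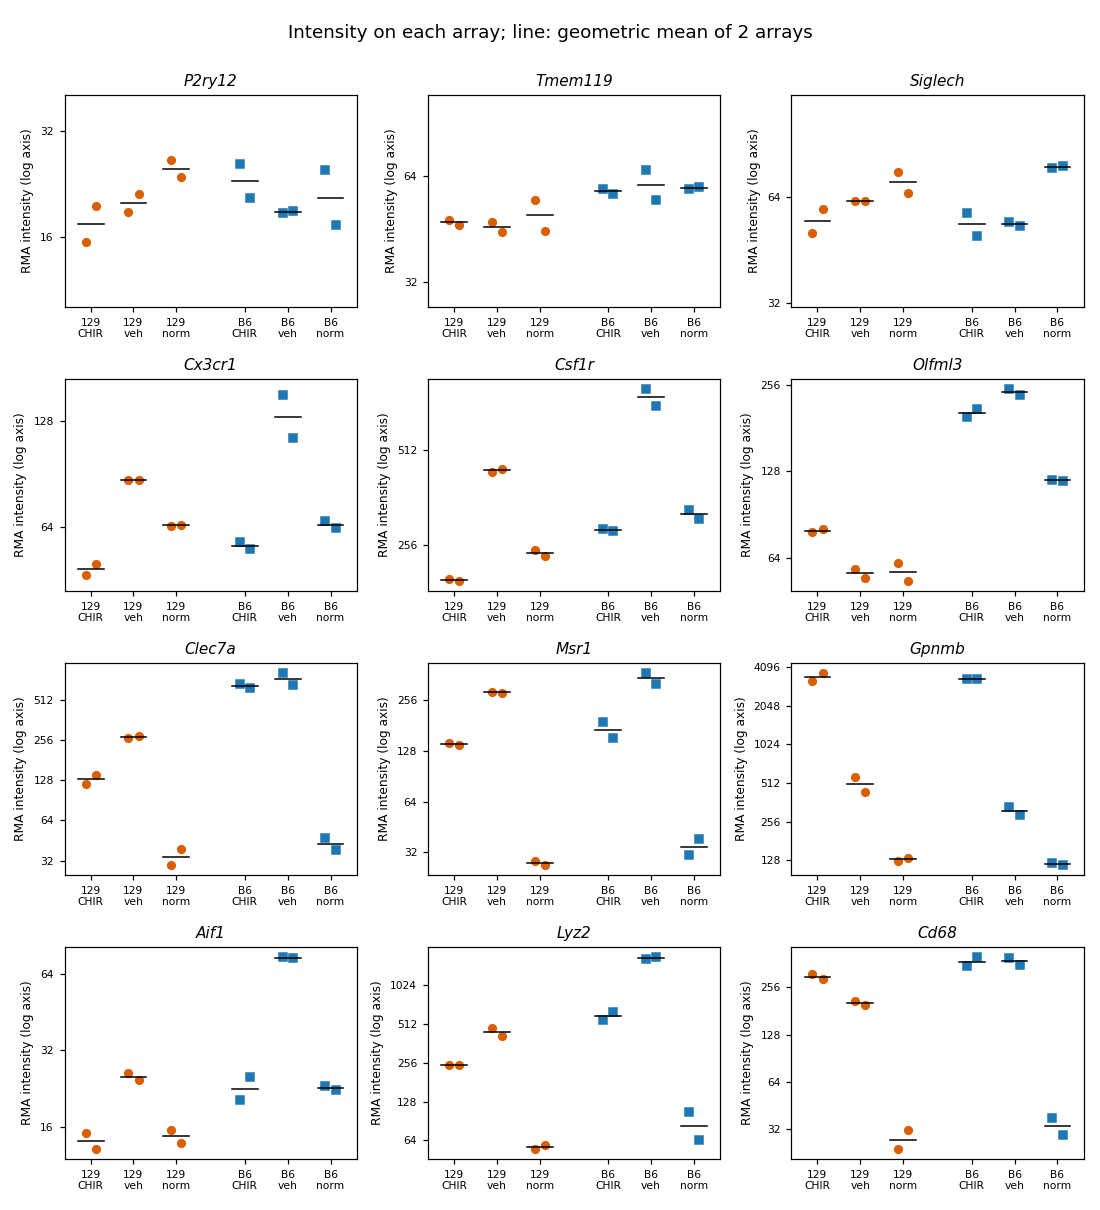
RMA intensity on each of the 12 arrays (log axis) for 12 member genes, with 129 as circles and B6 as squares; each line is the geometric mean of the 2 arrays of a group (CHIR, 3DIV with CHIR99021; veh, 3DIV vehicle; norm, normal retina). P2ry12 lies at 15.5 to 26.4 and Tmem119 at 44.3 to 66.4 over all arrays. Tmem119 was called lower in 129 than in B6 vehicle explants, a call lost without some arrays. Clec7a, Msr1, Lyz2 and Cd68 are low only in normal retina, and Gpnmb is at 3228 or more on all 4 arrays with CHIR99021.

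Markers of other cells that a retina explant could hold were measured on the same arrays, and their part in these results was not tested. Markers of blood monocytes and neutrophils, 9 of 11 measured, summed to 349 to 370 in CHIR99021 explants, 367 to 384 in vehicle explants and 393 to 435 in normal retina. They did not move up with the members, apart from S100a8 at 0.44 on the log2 scale in 129 culture (adjusted p = 0.00468). Mmp9, the brightest of the 9 at percentile 65.6, was called lower in culture in 129 and B6 (log2 -0.33 and -0.24, adjusted p = 0.00728 and 0.0353). Several others were dim, such as Chil3, S100a9, Cxcr2 and Plac8 (percentiles 6.2, 19.3, 19.3 and 19.7), so their flat values say little about these cells. Ccr2, a receptor of monocytes, had 63.1 to 85.6 over all arrays. Markers of border and perivascular macrophages, 7 of 7 measured, summed to 678 to 969 in explants, against 352 to 507 in normal retina. In culture 2 of the 7 rose in each strain, Pf4 and Mrc1, and Lyve1 fell in 129 (log2 -0.70, adjusted p = 0.00235). Of all probe sets, 14.7% were called higher and 15.9% lower in 129, and 14.9% higher and 16.6% lower in B6. The median log2 difference of the 7 was 0.02 in 129 and -0.09 in B6. Most of the sum was Pf4, a platelet and macrophage chemokine, which had 356 to 653 in explants, against 19.8 to 45.7 in normal retina. Mrc1, the mannose receptor of such cells, had 41 and 42.2 in B6 explants with CHIR99021 and at most 21.6 on any other array, and its rise in culture was 0.61 in 129 and 0.73 in B6 on the log2 scale (adjusted p = 0.0115 and 0.00419). Cd163 stayed at 8.4 to 10.1. Sums of T cell, B cell and erythrocyte markers each stayed within a narrow range, 269.9 to 340 for T cells, 90.4 to 114 for B cells and 50.9 to 66.0 for erythrocytes. These lists also held dim probe sets, such as Cd2, Cd79b and Alas2 (percentiles 6.5, 14.1 and 14.3). A narrow range therefore does not show that such cells were absent.

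The strains differed by little in normal retina and by more in culture. In normal retina, 10 of the 40 members were lower in 129 than in B6 and 0 were higher, where 5.45% of all probe sets were called lower and 6.07% higher. At an unadjusted p under 0.05, limma found 1 member higher, Cd14 (log2 0.31). The median log2 difference was -0.21, beside -0.01 over all genes. Centring on housekeeping genes moved the median of all genes by 0.15 here, and then 9 members were lower and 3 higher, with 87.1% of all calls higher, against 52.7% as fitted. In 3DIV vehicle explants, 23 were lower and 2 were higher, where 8.57% of all probe sets were called lower and 11.4% higher, and the median was -0.52. With CHIR99021, 18 were lower and 0 were higher, where 4.88% of all probe sets were called lower and 6.01% higher, and the median was -0.37; at an unadjusted p under 0.05, 1 member was higher, again Cd14 (log2 0.36). The arrays carry probes designed on a reference mouse sequence, so a strain difference in RNA level and a strain difference in sequence under a probe cannot be told apart.

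**Figure D3:**
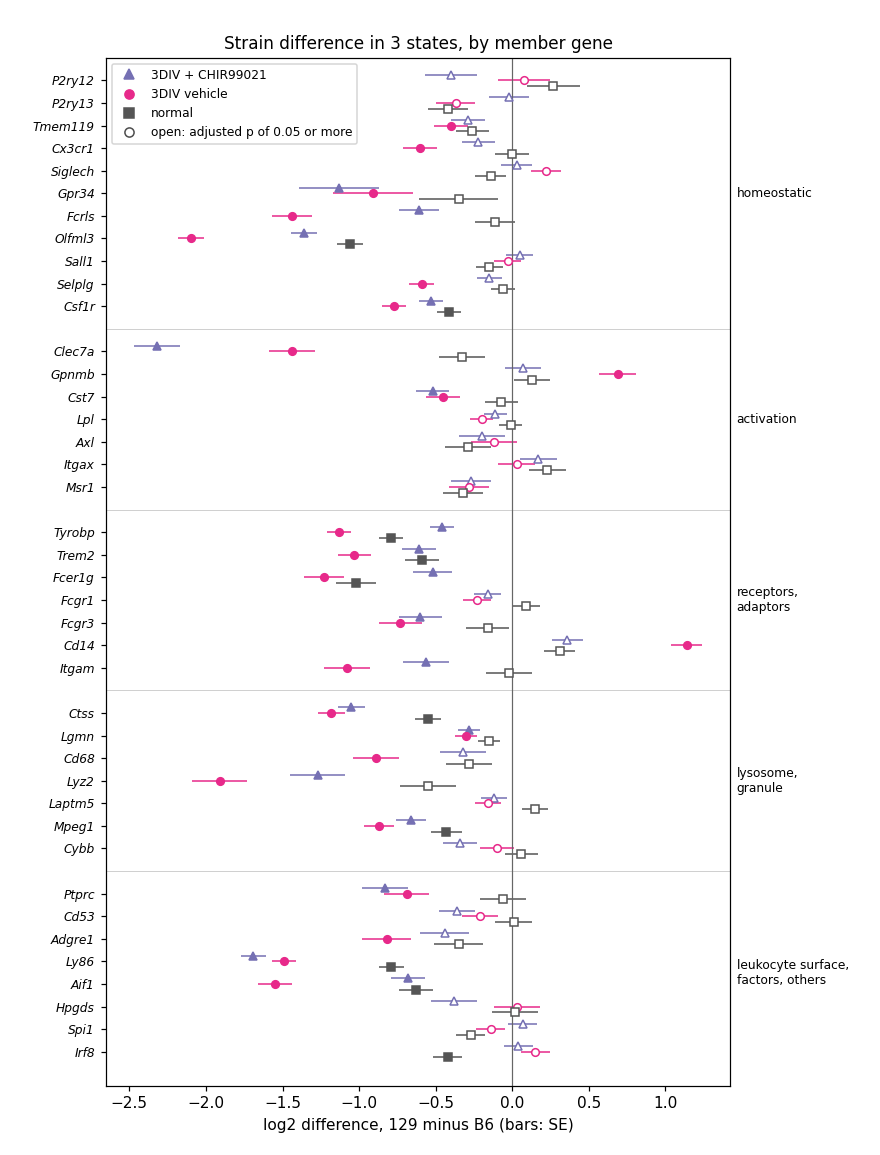
Log2 difference 129 minus B6 for each member in explants with CHIR99021 (triangles), in vehicle explants (circles) and in normal retina (squares), with standard errors; open symbols did not pass an adjusted p of 0.05. Most symbols lie left of 0, Olfml3 is lower in 129 in all 3 states, and Cd14 at 1.14 and Gpnmb at 0.69 in vehicle explants are the filled symbols to the right.

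Olfml3 had the largest difference among members in normal retina. It had 61.4 and 53.1 in 129 normal retina, against 119.8 and 118.5 in B6 normal retina, and the 129 minus B6 difference on the log2 scale was -1.06 there, -2.10 with vehicle and -1.36 with CHIR99021 (adjusted p = 1.6e-05, 1.03e-07 and 2.97e-06; SE 0.08). Fcer1g had 41.7 and 45.0 in 129 normal retina, against 101.9 and 75.7 in B6 normal retina (log2 -1.02, adjusted p = 0.000524). Tyrobp, Ly86, Aif1 and Ctss were also lower in 129 normal retina, at -0.79, -0.79, -0.63 and -0.55 (adjusted p = 7.48e-05, 0.000103, 0.00342 and 0.00178). These 6 calls held when any 1 array was left out. The other 4 did not: Csf1r (-0.41) and Trem2 (-0.59) were lost without replicate 2 of 129 normal retina, the array with the highest lens markers. Irf8 (-0.42) was lost without replicate 1 of either strain and Mpeg1 (-0.43) without any of the 4 arrays compared. Mpeg1 was also lost with housekeeping centring (adjusted p = 0.0622), and Irf8 with the mean of its probe sets or the compared arrays alone (adjusted p = 0.0613 and 0.0691).

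In vehicle explants the strains parted most for Olfml3, Lyz2, Aif1, Ly86, Clec7a and Fcrls, which were lower in 129 (log2 -2.10, -1.91, -1.55, -1.49, -1.44 and -1.44). Ly86 had 220.2 and 212 in 129 vehicle explants, against 627 and 591 in B6 vehicle explants. Ctss had 509 and 523 in 129 vehicle explants, against 1220 and 1116 in B6 vehicle explants (log2 -1.18, adjusted p = 8.51e-06). For all of these the lowest B6 vehicle array was above the highest 129 vehicle array. Of all probe sets, 8.57% were called lower in 129 here. By role, 7 of 11 homeostatic genes, 2 of 7 activation genes and 5 of 7 receptors and adaptors were lower in 129. So were 5 of 7 lysosome and granule genes and 4 of 8 of the remaining group. The activation genes thus held few of the lower calls, with Msr1 at -0.28 (adjusted p = 0.159), Axl at -0.12 (adjusted p = 0.644) and Lpl at -0.20 (adjusted p = 0.0841). Among the 23 lower calls, 18 held when any 1 array was left out, and those of Cst7, Gpr34, Lgmn, Ptprc and Tmem119 did not. Cx3cr1 (-0.60) was not called with the mean of its probe sets (-0.30, adjusted p = 0.0735). The arrays whose omission ended them were vehicle arrays, replicate 1 of B6 for all 5, replicate 2 of B6 for Cst7, replicate 1 of 129 for Gpr34, Lgmn, Ptprc and Tmem119, and replicate 2 of 129 for Cst7, Gpr34, Lgmn and Tmem119 (adjusted p up to 0.118 for Cst7, 0.207 for Gpr34, 0.0933 for Lgmn, 0.0744 for Ptprc and 0.2 for Tmem119).

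Cd14 and Gpnmb were the members higher in 129 vehicle explants. Cd14 was higher by 1.14 (SE 0.10, adjusted p = 3.64e-05), with 425 and 415 in 129 vehicle explants, against 186 and 194 in B6 vehicle explants. Gpnmb was higher by 0.69 (SE 0.12, adjusted p = 0.00293), with 572 and 437 in 129 vehicle explants, against 335 and 287 in B6 vehicle explants. Both calls held when any 1 array was left out.

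With CHIR99021 in the medium, Clec7a differed most, with 120.1 and 140 in 129 CHIR99021 explants, against 674 and 625 in B6 CHIR99021 explants (log2 -2.32, SE 0.15, adjusted p = 3.67e-06). Ly86 had 74.6 and 73.1 in 129, against 253 and 225 in B6, under the same treatment (log2 -1.69, adjusted p = 4.29e-07). The groups were apart by far more than their own spread. Olfml3, Lyz2, Ctss, Aif1, Mpeg1, Trem2, Csf1r and Tyrobp were lower in 129 as well (log2 -1.36, -1.27, -1.05, -0.68, -0.66, -0.61, -0.53 and -0.46). These 10 calls held without any 1 array, and the 8 others of the 18 were each lost without at least 1 CHIR99021 array (adjusted p up to 0.203). With the mean of its probe sets, Trem2 was at -0.21 and lost its call (adjusted p = 0.161), and Itgam and Lgmn lost theirs with the compared arrays alone (adjusted p = 0.0889 and 0.084). Replicate 1 of B6 ended the calls of Cst7, Fcer1g, Fcgr3, Fcrls, Gpr34, Itgam and Lgmn, and replicate 2 of B6 those of Fcer1g, Fcgr3, Itgam and Lgmn. Replicate 1 of 129 ended those of Fcer1g, Fcgr3, Gpr34, Lgmn and Ptprc, and replicate 2 of 129 those of Cst7, Fcer1g, Fcrls, Gpr34, Itgam and Lgmn. Without replicate 1 of the B6 CHIR99021 explants the count of lower members was 11.

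The change in culture differed between strains in 1 member with a larger and 9 with a smaller value in 129, where 1.55% of all probe sets had a called difference of changes above 0 and 1.03% below 0. Besides Fcrls and Olfml3, these were Lyz2 (-1.37), Clec7a (-1.11), Itgam (-1.06), Aif1 (-0.92), Ly86 (-0.70), Ctss (-0.62) and Selplg (-0.53), with Cd14 (0.83) in the other direction. The median over the 40 members was -0.33, beside 0.00 over all genes. Centring on housekeeping genes moved the median of all genes by -0.17 here, and then 15 members had a smaller change in 129, with 14.5% of all calls above 0, against 59.9% as fitted. Lower levels in 129 vehicle explants and the smaller change in 129 share the same arrays and are not separate evidence.

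CHIR99021 lowered many of the genes that culture had raised and raised Gpnmb. In 129, 17 of the 40 members were lower and 3 were higher with CHIR99021 than with vehicle at 3DIV, where 6.38% of all probe sets were called lower and 5.87% higher. In B6, 23 were lower and 1 was higher, where 9.18% of all probe sets were called lower and 9.42% higher. The median log2 difference was -0.29 in 129 and -0.44 in B6, beside 0.01 and -0.01 over all genes. The effect of CHIR99021 and the change in culture share the vehicle arrays, so a high vehicle value enters both. Some markers of other retinal cells were also lower with CHIR99021 than with vehicle. Rods had 5 of 5 lower in each strain (median log2 -0.42 in 129 and -0.64 in B6). Cones had 3 of 4 and vessels 3 of 8 lower in each strain. Other markers rose. Trpm1 of the bipolar list rose by 1.38 in 129 and 2.25 in B6 (adjusted p = 0.00369 and 0.000144). Of the 3 bipolar markers, 1 was lower in 129 and 0 in B6. Gfap of the astrocyte list rose in B6 (log2 1, adjusted p = 0.00308) and was not called in 129. Of the 3 astrocyte markers, 1 was lower in each strain. The part of all these markers in these results was not tested.

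**Figure D4:**
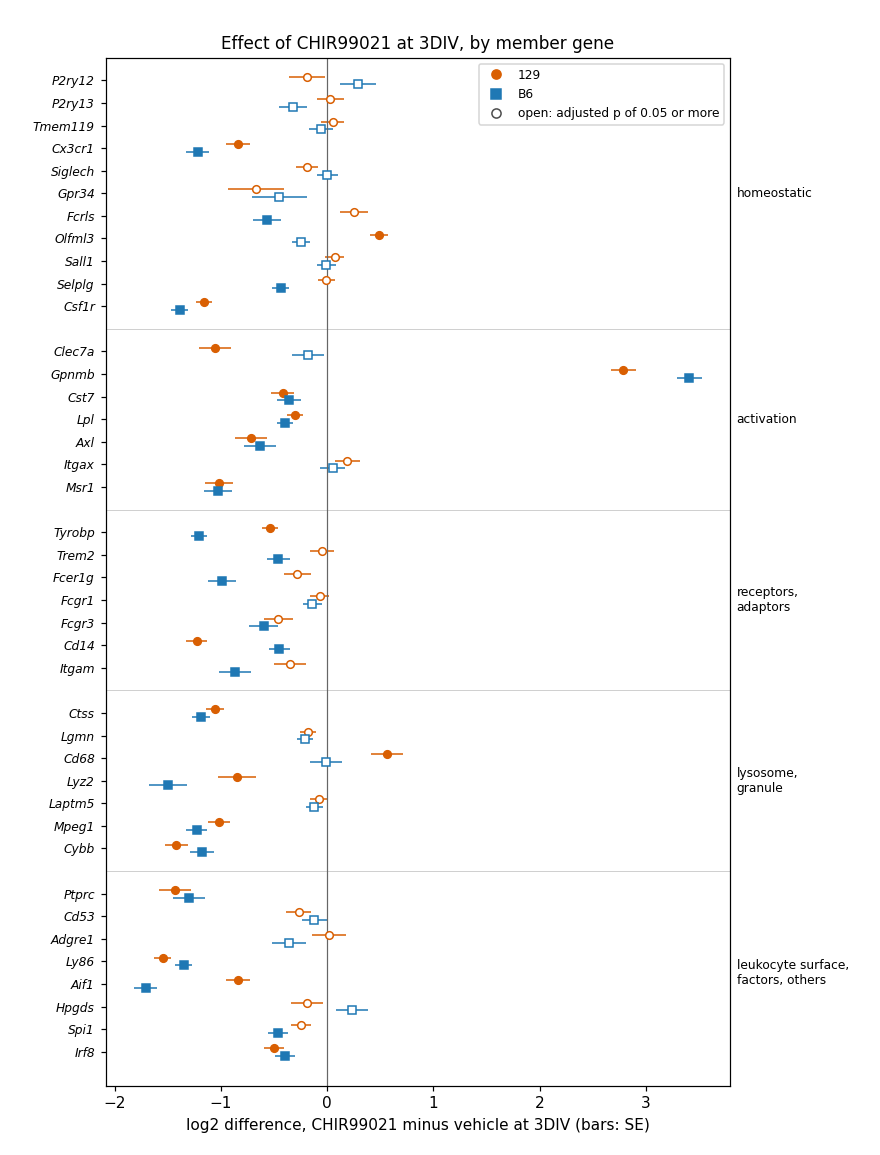
Log2 difference between CHIR99021 and vehicle explants at 3DIV for each member gene, in 129 (circles) and in B6 (squares), with standard errors; open symbols did not pass an adjusted p of 0.05. Gpnmb stands alone at 2.79 in 129 and 3.41 in B6, and Csf1r, Cx3cr1, Ctss, Mpeg1, Cybb, Ptprc, Ly86 and Aif1 are lower in both strains.

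Csf1r had 200 and 197 in 129 CHIR99021 explants, 438 and 447 in 129 vehicle explants and 248 and 237 in 129 normal retina. In B6 it had 289 and 285 in CHIR99021 explants, 802 and 706 in vehicle explants and 332 and 311 in normal retina. Both CHIR99021 arrays of a strain lay below its normal arrays, a comparison that was not tested, and the fall against vehicle was 2.23-fold in 129 (log2 -1.16, SE 0.08, adjusted p = 2.1e-05) and 2.62-fold in B6 (log2 -1.39, SE 0.08, adjusted p = 4.31e-06). Cx3cr1 had 46.8 and 50.2 in 129 CHIR99021 explants, 86.7 on both vehicle arrays and 64.5 and 64.7 in normal retina. It had 57.8 and 55.4 in B6 CHIR99021 explants, 151 and 115 in vehicle explants and 66.3 and 63.3 in normal retina. Cx3cr1 was thus also lowest with CHIR99021 in both strains (log2 -0.84 in 129, adjusted p = 0.000948; -1.22 in B6, adjusted p = 6.93e-05; SE 0.11).

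Ctss followed the same order, with 246 and 248 in 129 CHIR99021 explants, 509 and 523 in vehicle explants and 424 and 415 in normal retina. It had 472 and 555 in B6 CHIR99021 explants, 1220 and 1116 in vehicle explants and 612 and 621 in normal retina. The fall against vehicle was 2.09-fold in 129 and 2.28-fold in B6. Aif1 had 15.2 and 13.1 in 129 CHIR99021 explants, 26.0 and 24.5 in vehicle explants and 15.6 and 13.9 in normal retina. It had 20.4 and 25.1 in B6 CHIR99021 explants, 74.5 and 73.5 in vehicle explants and 23.2 and 22.4 in normal retina. Aif1 with CHIR99021 thus overlapped normal retina in both strains, on a dim probe set (percentile 25.2 by mean log2 value). Against vehicle its log2 difference was -0.84 in 129 (adjusted p = 0.000892) and -1.71 in B6 (adjusted p = 9.26e-06). Ly86 fell by 1.55 in 129 and 1.35 in B6, Cybb by 1.42 and 1.18, Ptprc by 1.43 and 1.30 and Mpeg1 by 1.02 and 1.23 on the log2 scale, 129 before B6 (highest adjusted p = 0.000286).

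Gpnmb had 3228 and 3712 in 129 CHIR99021 explants, 572 and 437 in vehicle explants and 127 and 133 in normal retina. In B6 it had 3299 and 3288.5 in CHIR99021 explants, 335 and 287 in vehicle explants and 120.8 and 116.8 in normal retina. CHIR99021 raised it by 6.92-fold in 129 (log2 2.79, SE 0.12, adjusted p = 9.56e-07) and by 10.6-fold in B6 (log2 3.41, SE 0.12, adjusted p = 4.64e-07), and the strain difference with CHIR99021 did not pass the test (log2 0.07, SE 0.12, adjusted p = 0.799). The markers of pigment cells, which also make Gpnmb, summed to 326 to 449 in these explants and to 354 to 399 with vehicle. Their part in the Gpnmb values was not tested. Olfml3 rose with CHIR99021 in 129, to 78.5 and 80.5, against 58.6 and 54.7 with vehicle (log2 0.49, SE 0.08, adjusted p = 0.00419), and was not called in B6 (log2 -0.25, adjusted p = 0.0673). Cd68, the third member called higher in 129 (log2 0.56, adjusted p = 0.0337), lost that call without any of the 4 arrays compared (adjusted p up to 0.17).

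Some genes raised by culture stayed high. Cd68 had 312 and 289.5 in 129 CHIR99021 explants and 349 and 402 in B6 CHIR99021 explants, many times the 23.6 to 37.7 of normal retina, and in B6 the difference from vehicle was -0.01 (SE 0.15, adjusted p = 0.984). Cd53 had 139 and 153 in 129 CHIR99021 explants, against 174 and 177 with vehicle, and 184 and 189.7 in B6 CHIR99021 explants, against 227 and 181 with vehicle. Neither Cd53 difference passed the test (log2 -0.27, adjusted p = 0.206 in 129; -0.12, adjusted p = 0.579 in B6). Adgre1, Trem2 in 129, and Fcer1g and Fcgr3 in 129 were likewise not called lower (log2 0.02, -0.05, -0.28 and -0.46 in 129), while in B6 Fcer1g fell by 0.99 (adjusted p = 0.000644). Msr1 fell by 1.02 in 129 and 1.03 in B6 (adjusted p = 0.000699 and 0.00043) and yet, at 142 and 139.7 in 129 and 190.2 and 152 in B6, stayed above every normal array. Clec7a fell in 129 to 120.1 and 140, against 266 and 275 with vehicle (log2 -1.06, adjusted p = 0.00133). In B6, Clec7a had 674 and 625 with CHIR99021, against 812 and 662 with vehicle (log2 -0.18, adjusted p = 0.48), and the strains' difference in this effect did not pass the test (-0.88, SE 0.21, adjusted p = 0.0785). The homeostatic genes P2ry12, P2ry13, Tmem119, Siglech and Sall1 were not called with CHIR99021 in either strain, with log2 differences from -0.32 to 0.29.

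Several of the lower calls with CHIR99021 rested on the arrays used. In 129, those of Axl, Cst7, Irf8, Lpl and Lyz2 were lost without some array, each of them without replicate 1 of the 129 vehicle explants (adjusted p up to 0.0841 for Axl, 0.172 for Cst7, 0.0612 for Irf8, 0.159 for Lpl and 0.0862 for Lyz2). Replicate 2 of the vehicle explants ended those of Axl, Cst7 and Lpl, replicate 1 of the CHIR99021 explants those of Axl, Cst7, Lpl and Lyz2, and replicate 2 those of Cst7, Irf8, Lpl and Lyz2. In B6, those of Axl, Cd14, Cst7, Fcgr3, Fcrls, Irf8, Spi1 and Trem2 were lost without at least 1 B6 vehicle array (adjusted p up to 0.265), replicate 1 for all but Axl and Cd14 and replicate 2 for Axl, Cd14, Cst7, Irf8 and Trem2. Replicate 1 of the B6 CHIR99021 explants ended those of Fcgr3 and Spi1 and replicate 2 those of Axl, Cd14, Cst7, Fcrls, Irf8 and Trem2, and Cst7 was also lost without any 1 array of 129. In B6 the mean of probe sets also ended those of Irf8 (-0.13, adjusted p = 0.229), Trem2 (-0.23, adjusted p = 0.0942) and Lpl (-0.26, adjusted p = 0.0543). The remaining 12 of 17 in 129 and 15 of 23 in B6 held without any 1 array.

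The effect of CHIR99021 differed between strains in 3 members with a value above 0 and 1 below, where 0.389% and 0.966% of all probe sets were called in these directions. Aif1 (0.87), Olfml3 (0.74) and Tyrobp (0.68) fell less, or rose, in 129, and Cd14 (-0.79) fell more. Tyrobp had 214 and 209 in 129 CHIR99021 explants, against 318 and 298 with vehicle, and 274 and 309 in B6 CHIR99021 explants, against 686 and 664 with vehicle. Cd14 had 169.5 and 188 in 129 CHIR99021 explants, against 425 and 415 with vehicle, and 155 and 125 in B6 CHIR99021 explants, against 186 and 194 with vehicle. Each of these 4 calls was lost without any 1 of several arrays, among them replicate 1 of the B6 vehicle, the B6 CHIR99021 and the 129 CHIR99021 explants and replicate 2 of the 129 vehicle explants for all 4 (adjusted p up to 0.115). Proliferation markers also moved with strain and treatment, with a sum of 2003 and 1506 in 129 CHIR99021 explants, 564 and 514 in 129 vehicle explants and 358 to 468 in B6 explants, and their part in these results was not tested.

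**Figure D5:**
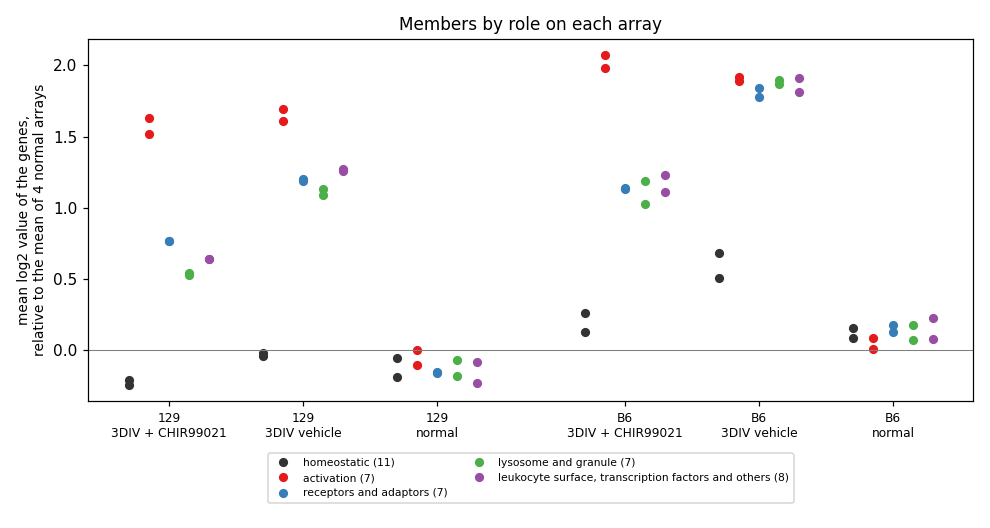
Mean log2 value of the measured genes of each role on each of the 12 arrays, relative to the mean of the 4 normal arrays (points; 2 arrays per group). The activation genes stay between 1.52 and 2.07 in all explants, the receptor, lysosome and leukocyte groups are lower with CHIR99021 than with vehicle, and the homeostatic genes lie between -0.24 and 0.68.

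By role and array, the activation genes averaged 1.52 and 1.63 above the normal arrays in 129 CHIR99021 explants and 1.69 and 1.61 in 129 vehicle explants. In B6 they averaged 2.07 and 1.98 with CHIR99021 and 1.92 and 1.89 with vehicle. Their mean therefore hardly moved with CHIR99021, Gpnmb up and the others down or flat. The lysosome and granule genes averaged 0.53 and 0.54 in 129 CHIR99021 explants, against 1.13 and 1.09 with vehicle, and 1.03 and 1.19 in B6 CHIR99021 explants, against 1.90 and 1.87 with vehicle. The homeostatic genes averaged -0.24 and -0.21 in 129 CHIR99021 explants, against -0.04 and -0.02 with vehicle, and 0.26 and 0.13 in B6 CHIR99021 explants, against 0.68 and 0.51 with vehicle.

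Other probe sets of the same genes did not always show what the brightest did. Over all 61 member probe sets, 37 rose and 1 fell in culture in 129, where 14.7% of all probe sets rose and 15.9% fell. In B6, 43 rose and 1 fell, where 14.9% of all probe sets rose and 16.6% fell. Fcgr1, the high-affinity receptor for immunoglobulin G, was flat on its brightest probe set (log2 -0.10 in 129, 0.23 in B6) and rose on 1417876_at by 1.26 in 129 (adjusted p = 0.00111) and 2.35 in B6 (adjusted p = 1.27e-05). Laptm5, a lysosomal membrane protein of blood cells, had -0.02 in 129 and 0.30 in B6 on its brightest probe set (called in B6, adjusted p = 0.0197, and lost without replicate 1 of B6 normal retina or either B6 vehicle array, adjusted p up to 0.141) and rose on 1436905_x_at by 1.70 in 129 and 2.05 in B6 (adjusted p = 6.01e-06 and 1.62e-06). Gpnmb on 1439345_at did not rise in culture (log2 -0.19 in 129, -0.12 in B6) but rose with CHIR99021 by 1.92 in 129 and 2.69 in B6 (adjusted p = 5.35e-05 and 6.04e-06). Cx3cr1 on 1450019_at, at percentile 22, was flat throughout, as was Trem2 on 1421226_at. The other Msr1 probe sets rose in culture in both strains, by 0.42 to 1.34 in 129 and by 0.35 to 2.13 in B6, all by less than the brightest. Lpl on 1431056_a_at was higher in 129 vehicle explants than in B6 by 0.58 (adjusted p = 0.0139), where the brightest had -0.20.

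Ligands, co-receptors and regulators that work with the members were examined as a separate list of 27 genes, of which 25 were measured. In culture 10 rose and 4 fell in 129, and 12 rose and 4 fell in B6, with medians of 0.08 and 0.15, beside 14.7% of all probe sets called higher and 15.9% lower in 129, and 14.9% higher and 16.6% lower in B6. Csf1, a ligand of Csf1r, had 548 and 509 in 129 vehicle explants, against 79.6 and 94.9 in 129 normal retina, and 494 and 525 in B6 vehicle explants, against 104 and 88.8 in B6 normal retina. It rose by 6.07-fold in 129 and 5.29-fold in B6 (adjusted p = 3.88e-08 and 8.72e-08), and CHIR99021, which lowered Csf1r, left it within 0.11 in 129 and 0.27 in B6 (adjusted p = 0.588 and 0.129). Il34, the other ligand, was called lower in B6 (log2 -0.35, adjusted p = 0.0413), a call lost without any of 5 arrays (adjusted p up to 0.283), with the replicate number as a block (adjusted p = 0.0522), with cyclic loess (0.0716) and with the compared arrays alone (0.0825). Cx3cl1, the ligand of Cx3cr1, was not called in either strain (log2 -0.20 in 129, -0.12 in B6).

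Among the ligands of Axl and its relatives, Pros1 rose by 2.37 in 129 and 1.73 in B6 (adjusted p = 8.61e-09 and 9.62e-08), while Gas6 fell by 0.58 in 129 (adjusted p = 0.000291) and was at -0.25 in B6 (adjusted p = 0.0383, lost without any of 7 arrays, with adjusted p up to 0.284, and with the mean of its probe sets, adjusted p = 0.253). Mertk, the relative of Axl that clears dead photoreceptor debris, was higher in 129 than in B6 by 0.58 with vehicle and by 1.18 with CHIR99021 (adjusted p = 0.00159 and 1.8e-05). Itgb2, the integrin chain that pairs with Itgam and Itgax, rose by 1.70 in 129 and 2.22 in B6 and fell with CHIR99021 by 0.90 in 129 and 1.37 in B6. Cebpb, a transcription factor of inflammatory genes, rose by 2.70 in 129 and 2.50 in B6. Mef2c, a factor of both microglia and neurons, fell by 1.85 in 129 and 2.41 in B6. Apoe, a lipid carrier made by glia and activated microglia, was lower in 129 vehicle explants by 1.08 (adjusted p = 0.00144), against -0.30 in normal retina (adjusted p = 0.33).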

How the data were processed

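The deposited values are linear intensities that the authors made with RMA, which subtracts background, brings all arrays to 1 distribution and gives 1 value per probe set (RMA version not given in the sources used here). Per the labels CHIR99021 was at 15 µM. Intensities were taken to log2, and 64 control probe sets of 45101 were left out, with no filter on signal. The annotation gave 1 symbol to 34945 probe sets, several to 932 and none to 9160. With limma 3.58.1 in R 4.3.3, 1 mean for each group was estimated across the 12 arrays (eBayes, 4.69 prior and 6 residual degrees of freedom), with Benjamini-Hochberg adjustment over 45037 probe sets in each of 9 comparisons. The number of arrays limits the precision. On simulated data for the change in culture in B6, 66% of 1.5-fold and 89% of 2-fold changes were recovered. Only 100 probe sets were changed at each fold there, far fewer than were called in the real comparison (14.9% higher and 16.6% lower). The adjustment was therefore stricter in the simulation, and these rates do not give the recovery in the real data. All members were named, by role and by their brightest probe set, and the members and lists were chosen with earlier results of these data known. Promoters came from RefSeq (GRCm38.p6). Alternatives were another scaling, another eBayes, a signal filter, the arrays fitted, the replicate number as a block, the mean of a gene's probe sets, and leaving out each array. Figures were drawn with matplotlib 3.10.9 in Python 3.11.15.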

Additional observations from a re-analysis of the deposited data

Results flagged for a closer look

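For 14 results in 11 members, the change in 129 and the change in B6 differed by limma's test of the difference itself. Each value is the 129 change minus the B6 change on the log2 scale, and no explanation was tested. For the change in culture, the difference was -1.37 for Lyz2 (adjusted p = 0.0213), -1.33 for Fcrls (0.00596), -1.11 for Clec7a (0.0234), -1.06 for Itgam (0.0254), -1.04 for Olfml3 (0.00193), -0.92 for Aif1 (0.0146), -0.70 for Ly86 (0.0128), -0.62 for Ctss (0.0263), -0.53 for Selplg (0.0385) and 0.83 for Cd14 (0.0168). For the effect of CHIR99021, it was 0.87 for Aif1 (adjusted p = 0.024), 0.74 for Olfml3 (0.0169), 0.68 for Tyrobp (0.0168) and -0.79 for Cd14 (0.0288). Of these, the culture results of Fcrls and Olfml3 stayed past the limit without any 1 array (adjusted p up to 0.0313 for Fcrls). That of Ly86 was lost without replicate 2 of the 129 vehicle explants alone (adjusted p = 0.0601), and the other 11 were each lost without any 1 of at least 4 of the 12 arrays (adjusted p up to 0.146). Among the culture results, all of these arrays are of the compared groups except for Selplg, which was lost without any array but replicate 2 of the B6 vehicle explants. Aif1 was lost without either B6 vehicle array, replicate 1 of 129 normal retina or replicate 2 of the 129 vehicle explants, and Lyz2 without the same arrays or replicate 2 of 129 normal retina. Clec7a was lost without replicate 2 of either normal group, either 129 vehicle array or replicate 1 of the B6 vehicle explants. Itgam and Cd14 were lost without replicate 1 of either normal group or any vehicle array, and Ctss without any compared array but replicate 2 of B6 normal retina. Among the CHIR99021 results, all 4 were lost without replicate 1 of the B6 vehicle, B6 CHIR99021 or 129 CHIR99021 explants or replicate 2 of the 129 vehicle explants. Aif1 and Cd14 were also lost without the other vehicle array of either strain, and Olfml3 and Cd14 without replicate 2 of the 129 CHIR99021 explants.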

How the results depend on the processing

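Of 171 called member differences, all stayed called with the replicate number as a block, 170 with cyclic loess, 170 with trended robust eBayes, 164 with the mean of a gene's probe sets, 163 with housekeeping centring and 162 with the compared arrays alone. Over all probe sets, arrays with the same number did not deviate together (correlations of deviations -0.107 to 0.044). With 1 difference between replicates per group, this cannot tell whether arrays with the same number share an animal or a batch. With the block, 27 members were higher and 1 lower in culture in 129, as without it. The block ended 3 calls among the partner genes, Il34 in culture in B6 among them (adjusted p = 0.0522). With the mean of probe sets, signs turned for Laptm5 between strains in normal retina (-0.21) and for the culture change in 129 of Fcgr1 (0.58), Laptm5 (0.37) and Runx1 (0.48). Housekeeping centring gave 3 members higher between strains in normal retina, 9 lower in culture in 129 and 15 with a smaller culture change in 129. Probe sets above the median level, with 24 members, gave 1 higher between strains in normal retina and 1 with CHIR99021, 0 lower in culture in either strain, 2 with a larger culture change in 129 and 2 with a lower CHIR99021 effect in 129. The mean of probe sets gave 1 and 1 higher between strains in normal retina and with CHIR99021, and 2 with a larger culture change in 129. Trended robust eBayes gave 1 higher between strains with CHIR99021, 2 with a larger culture change in 129, and 5 above and 3 below 0 in the strains' difference in the CHIR99021 effect, where the compared arrays alone gave 2 below 0. Leaving out 1 array gave 0 to 1 higher between strains in normal retina, 0 to 1 higher and 11 to 19 lower with CHIR99021, 0 to 1 with a larger and 2 to 8 with a smaller culture change in 129, and 0 to 5 above and 0 to 1 below 0 for the CHIR99021 effect. The smaller culture change in 129 was called in 2 members without replicate 2 of the 129 vehicle explants, 5 without replicate 1 of them, 4 without replicate 1 of 129 normal retina and 3 without replicate 1 of the B6 vehicle explants. For the CHIR99021 effect, 0 were above 0 without replicate 1 of the B6 vehicle, B6 CHIR99021 or 129 CHIR99021 explants or replicate 2 of the 129 vehicle explants, and 5 without either array of B6 normal retina. Averaging probe sets and filtering change which probe sets are counted; for the other shifts the cause was not tested. Groups of 2 arrays and dim probe sets limit what can be seen. Such probe sets are those of P2ry12, Cybb, Aif1, Cst7 and Gpr34, among others (percentiles 21.6, 21.6, 25.2, 26.7 and 28.1).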
